A study of Mus musculus with 9 samples.

Results

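The nuclear genes for the mitochondrial respiratory chain and ATP synthase were followed in mouse ear skin 6 hours after a contact allergen, an irritant or their vehicle. Members were taken by symbol: every gene whose symbol starts with Nduf, Sdh followed by a, b, c or d, Uqcr, Cox4 to Cox8, or Atp5, on a probe set annotated to 1 gene. This gave 94 of the 18193 named genes on the array, measured by 185 probe sets. Of these, 81 encode subunits of the complexes or their tissue forms. The other 13 carry a matching symbol but are no structural subunits: the assembly factors Ndufaf1 to Ndufaf8 and Sdhaf1 to Sdhaf4, and Cox7a2l, which links complexes III and IV into supercomplexes. Values were high enough for testing in 92 members. The testis form Cox7b2 and the complex I subunit Ndufb4 were not tested, with mean signals between 17.9 and 39.6 and between 34.8 and 57.0 in the 3 groups.

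The respiratory chain passes electrons from NADH (complex I) or succinate (complex II) through ubiquinone to complex III, then through cytochrome c to complex IV, which reduces oxygen. Complexes I, III and IV pump protons across the inner mitochondrial membrane, and ATP synthase uses the gradient to make ATP. Most subunits are encoded in the nucleus, and their genes are known targets of NRF1, GABP, the oestrogen-related receptors and YY1, helped by coactivators of the PGC-1 family; epidermis leans strongly on glycolysis, whereas striated muscle is rich in mitochondria.

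The arrays measured total RNA of whole ear skin from C57BL/6 mice, 3 arrays in each of 3 groups, 9 in all. The DNFB group received dinitrofluorobenzene, a hapten that provokes allergic contact dermatitis, and the BAC group received benzalkonium chloride, a cationic detergent and irritant. Both were painted on the right ear, and the vehicle, acetone with olive oil, on the left, so treated against vehicle also compares right with left ears and these cannot be told apart. The labels name no doses and do not say whether the replicates came from different animals, so each p-value reflects sample-to-sample spread that could be technical. The comparisons ask how an allergen and an irritant each change the skin, and whether they differ. Values are MAS5 signals, a linear intensity scaled by array. Changes are differences of log2(signal + 16) between group means with their standard error (SE), tested with limma. Adjusted p-values follow Benjamini and Hochberg over 14122 tested genes, and a gene passed at an adjusted p under 0.05. In bulk skin, fewer cells of a type and less RNA per cell cannot be told apart.

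Promoters of the members were searched for short motifs, and no single motif stood in most of them. RefSeq (GRCm38.p6) promoter windows, 250 bases before to 50 after a transcription start, were at hand for 78 of the 94 members, 83 windows in all. Both strands were searched for 5 motifs, and the shares compared with all 32851 windows of the same 300-base length. Hits of different motifs could overlap, as where CCGGAAG runs on into AAGATGGC. The NRF1 motif GCGCANGCG stood in 23 member windows (27.7%) against 6.25% of all windows. The ETS motif CCGGAAG, which GABP binds, stood in 22 (26.5%) against 8.86%. The YY1 motif AAGATGGC stood in 10 (12.05%) against 2.75%, the CREB motif TGACGTCA in 3 (3.61%) against 1.79%, and the ERR motif TNAAGGTCA in 3 (3.61%) against 1.28%. At least 1 of the 5 stood in 49 member windows (59.0%) against 18.4% of all. A match is a description of letters and no evidence of binding.

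In all, 8 members passed in at least 1 comparison, and the windows of those that held a motif are printed 5′ to 3′ on the gene's own strand, with motif letters in capitals on whichever strand they matched. They are shown because these genes carry the calls described further on. The Sdhd window, chr9:50603800-50604099 (minus strand), held in order an NRF1, an ETS and an ERR match. The Ndufa10 window, chr1:92473709-92474008 (minus strand), held a CREB match, as did the Ndufb2 stretch, chr6:39592505-39592604 (plus strand). The stretches of Ndufb7, chr8:83566691-83566790 (plus strand), Cox6b1, chr7:30626090-30626189 (minus strand), and Atp5md, chr19:47090598-47090697 (minus strand), each held an ETS match. The windows of Cox5a and Cox7a2 held none of these letters.
Sdhd: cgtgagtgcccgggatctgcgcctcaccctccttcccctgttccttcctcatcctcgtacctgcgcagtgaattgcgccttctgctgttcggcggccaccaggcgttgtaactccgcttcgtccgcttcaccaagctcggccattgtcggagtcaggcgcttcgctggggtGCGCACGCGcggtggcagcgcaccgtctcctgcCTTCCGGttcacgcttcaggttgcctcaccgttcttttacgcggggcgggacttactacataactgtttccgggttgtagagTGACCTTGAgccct
Ndufa10: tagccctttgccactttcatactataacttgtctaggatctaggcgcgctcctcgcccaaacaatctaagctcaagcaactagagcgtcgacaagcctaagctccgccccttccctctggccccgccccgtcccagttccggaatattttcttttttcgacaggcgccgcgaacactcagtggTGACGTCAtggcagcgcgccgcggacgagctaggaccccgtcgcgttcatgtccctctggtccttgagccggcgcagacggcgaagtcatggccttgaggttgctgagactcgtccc
Ndufb2: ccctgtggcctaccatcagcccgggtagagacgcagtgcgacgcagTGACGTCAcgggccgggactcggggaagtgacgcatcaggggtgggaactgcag
Ndufb7: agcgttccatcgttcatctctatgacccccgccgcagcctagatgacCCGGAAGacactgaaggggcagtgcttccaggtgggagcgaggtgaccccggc
Cox6b1: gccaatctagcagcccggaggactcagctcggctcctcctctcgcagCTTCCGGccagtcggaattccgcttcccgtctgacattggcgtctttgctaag
Atp5md: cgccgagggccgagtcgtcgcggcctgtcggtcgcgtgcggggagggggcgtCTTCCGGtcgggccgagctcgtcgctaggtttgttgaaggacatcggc

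Arrays correlated at 0.935 to 0.966 within a group and 0.925 to 0.948 between groups over all probe sets, and their median signals lay between 71.2 and 86.3. The ratio of 3′ to 5′ Gapdh signal, a measure of RNA quality, was 0.856 to 0.880 in the vehicle arrays and 0.917 to 0.932 in the BAC arrays. DNFB replicates 1, 2 and 3 had 0.841, 1.36 and 0.943, so the second stood apart. The same ratio for actin was 1.05 to 1.10 in the vehicle arrays, 1.09, 1.28 and 1.23 in DNFB replicates 1, 2 and 3, and 1.18 to 1.22 in the BAC arrays, so by it DNFB replicates 2 and 3 and all BAC arrays lay above vehicle. Of 13 epidermal keratinocyte markers, 9 fell after DNFB and 8 after BAC, and of 11 neutrophil markers 9 and 11 rose. Of 10 fibroblast markers 4 and 2 rose, and of 9 adipocyte markers 2 and 1 rose while 1 and 0 fell. Of 7 sebocyte markers 3 fell after DNFB and 0 after BAC (1 at an unadjusted p under 0.05), and of 13 chondrocyte markers 1 rose after DNFB and 0 after BAC (0 at an unadjusted p under 0.05). By list, the shares called after DNFB and BAC were 69.2% and 61.5% (keratinocyte), 81.8% and 100% (neutrophil), and 40% and 20% (fibroblast). They were 33.3% and 11.1% (adipocyte), 42.9% and 0% (sebocyte), and 7.69% and 0% (chondrocyte). Of all tested genes, 13.8% and 14.2% passed. The labelled tissue was borne out by the keratinocyte markers, none of which read under 395 on any array.

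The respiratory chain as a whole moved little after either compound. After DNFB, 5 members rose and 1 fell, 6 of 92 (6.52%), where 13.8% of all tested genes passed. Sdhd, Cox5a, Ndufb2, Cox6b1 and Cox7a2 rose and Ndufa10 fell. The median change over members was 0.17, against 0.00 over all tested genes, and 70 of 92 members had a change above 0. With quantile normalisation it was 0.065 against 0.024, with 60 above 0. In 17 members (18.5%) every DNFB array read higher than every vehicle array, which 15.2% of all genes did. In 2 (2.17%) every DNFB array read lower, against 15.6% of all genes. The count of calls depended on single arrays: it was 0 without vehicle replicate 1 (14 at an unadjusted p under 0.05 in limma), 15 without vehicle replicate 2, 1 without vehicle replicate 3, 1 without DNFB replicate 2 and 2 without DNFB replicate 3. Calls over all genes moved too, to 1276, 1801, 1249, 1437 and 1641 in the same order, against 1955 with all arrays. Member calls were also 0 with arrays centred on their median (10 at an unadjusted p under 0.05), and 16 with array weights. With these settings 1417 and 2426 of all genes passed. Under other scalings the share with every DNFB array higher lay below that of all genes, at 3.26% against 11.7% with median centring and 10.9% against 16.4% with quantile normalisation.

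After BAC, 1 member rose (Sdhd) and 2 fell (Ndufa10 and Ndufb7), 3 of 92 (3.26%), where 14.2% of all tested genes passed. The median change was -0.04 against -0.03 over all genes, and 36 of 92 members lay above 0. With median centring both medians were -0.12, with 21 members above 0, and with quantile normalisation they were -0.11 and -0.03, with 23 above 0. Every BAC array read higher than every vehicle array in 2 members (2.17%) against 14.9% of all genes, and lower in 13 (14.1%) against 19.2%. With quantile normalisation this turned to 27.2% of members against 18.1% of all genes. Of all genes that passed after BAC, 46.3% were higher, and 33.97% with arrays centred on their median; with that centring 0 members rose and 2 fell. Leaving out vehicle replicate 1 or BAC replicate 2 left 0 member calls (13 and 11 at an unadjusted p under 0.05). Leaving out vehicle replicate 3 left 1. Over all genes 1225, 1371 and 1419 passed in these fits, against 2009 with all arrays. The sign of the members' small median turned without vehicle replicate 2, to 0.02.

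Between the compounds, most members read higher after DNFB than after BAC. Against BAC, DNFB was higher in 3 members that passed (Ndufb2, Ndufb7 and Atp5md) and lower in 0, 3 of 92 (3.26%), where 6.80% of all tested genes passed. The median difference was 0.19, against 0.03 over all genes, and 80 of 92 members lay above 0. Every DNFB array read higher than every BAC array in 35 members (38.0%), which 13.7% of all genes did. Cox7c, a common complex IV subunit read by a dim probe set, was the 1 member (1.09%) with every DNFB array lower, against 11.4% of all genes. With arrays centred on their median or quantile-normalised, 25 and 31 members (27.2% and 33.7%) had every DNFB array higher, against 15.8% and 14.3% of all genes. The count of member calls was 9 without DNFB replicate 1, 1 without DNFB replicate 3 and 5 without BAC replicate 3. Over all genes 892, 571 and 676 passed in these fits, against 961 with all arrays.

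The sizes involved were small. The 95% interval of the change lay within 1.5-fold in either direction for 72 of 92 members after DNFB, for 78 after BAC and for 64 between the compounds. Within 2-fold lay 90, 91 and 88. Members were among the brighter genes, with a median mean signal of 2648, and the median SE of their changes was 0.12 against 0.18 over all tested genes. In limma without the trend of spread with signal, 0 members passed in any comparison (12, 9 and 24 at an unadjusted p under 0.05). Of all genes, 1202, 1387 and 402 passed without the trend.

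**Figure D1:**
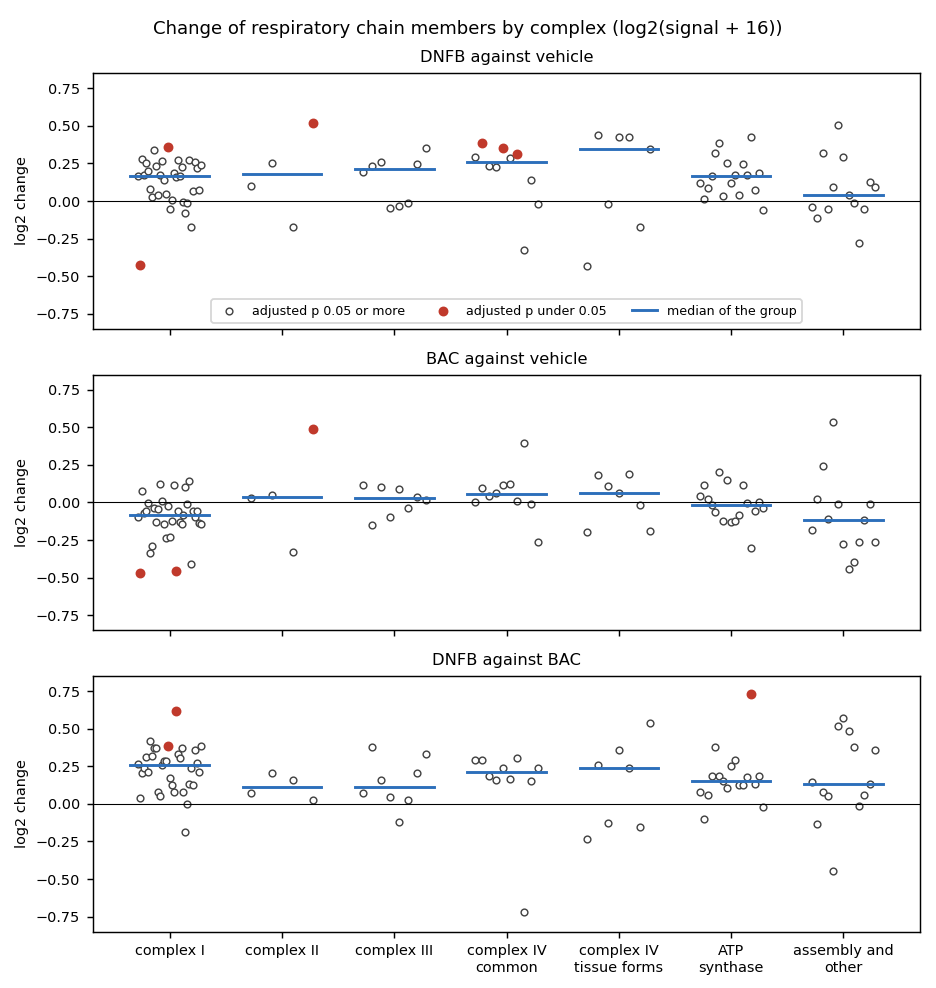
Each point is the log2 change of 1 member, placed by complex, in the 3 comparisons; filled points passed at an adjusted p under 0.05 and horizontal lines mark the median of each group of subunits. Most points lie within 0.5 of 0, and between DNFB and BAC 80 of 92 lie above 0.

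Read by array, the median member lay 0.03, 0.25 and 0.16 above the vehicle mean in DNFB replicates 1, 2 and 3. The BAC replicates lay at -0.10, -0.06 and 0.05, and the vehicle replicates at -0.04, 0.11 and -0.09. The groups overlapped, since vehicle replicate 2 lay above DNFB replicate 1 and BAC replicate 3 above DNFB replicate 1. DNFB replicate 2, the highest, was also the array with the Gapdh ratio of 1.36, and the DNFB replicates had the same order by actin ratio (1.09, 1.28 and 1.23) as by member median. The BAC arrays, at 1.18 to 1.22, had medians near or below the vehicle mean. The part of RNA quality in the result was not tested, and without DNFB replicate 2 the median change after DNFB was 0.11.

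**Figure D2:**
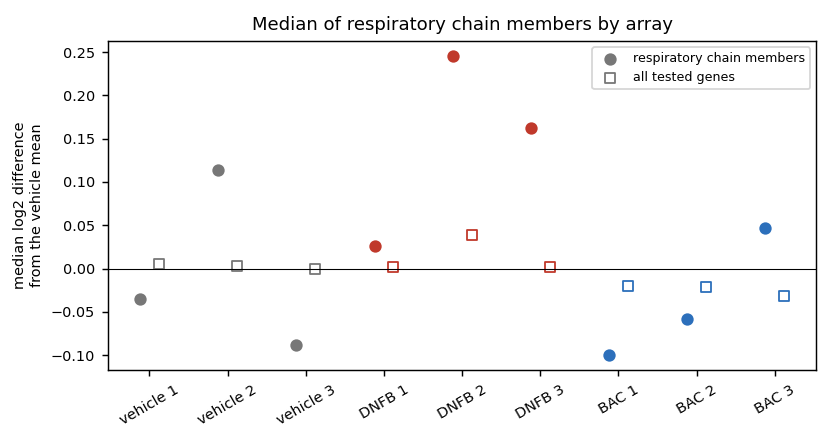
For each of the 9 arrays the filled point is the median over 92 members of the log2 difference from the vehicle mean, and the open square the same over all 14122 tested genes. Members spread from -0.10 to 0.25 between arrays, with overlap between groups, while the squares stay within 0.04 of 0.

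Complex I, the NADH dehydrogenase that feeds most electrons into the chain, had 33 tested subunits. Its median change was 0.17 after DNFB, -0.09 after BAC and 0.26 between DNFB and BAC. After DNFB Ndufb2 rose and Ndufa10 fell, and after BAC Ndufa10 and Ndufb7 fell. Between the compounds 31 of 33 subunits lay above 0 and 14 (42.4%) had every DNFB array above every BAC array, against 13.7% of all genes. After BAC, 27 of 33 lay below 0, and 8 (24.2%) had every BAC array below every vehicle array, against 19.2% of all genes.

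Ndufb7, an accessory subunit on the intermembrane side of the membrane arm, showed the widest gap of complex I between the compounds. Its signal was 2068, 2395 and 1999 in the vehicle arrays, 2136, 2494 and 2610 after DNFB, and 1274, 1636 and 1817 after BAC. Every BAC array lay below every other array, while DNFB and vehicle overlapped. The difference between DNFB and BAC was 0.62 (SE 0.13, adjusted p = 0.0110), and BAC against vehicle was -0.46 (SE 0.13, adjusted p = 0.0318). DNFB against vehicle was 0.16 (adjusted p = 0.493). The first call was lost without DNFB replicate 3 (highest adjusted p 0.0571), and the call against vehicle without vehicle replicate 1 or 2 or BAC replicate 1 or 2 (change between -0.57 and -0.31, adjusted p up to 0.132). The dimmer Ndufb7 probe set gave 0.44 between the compounds and -0.17 after BAC, neither past the threshold, and the mean of both probe sets gave 0.53 (adjusted p = 0.0281) and -0.32 (adjusted p = 0.122).

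Ndufa10, a matrix-facing accessory subunit with a nucleoside kinase fold, read lower after both compounds. The vehicle arrays had 2599, 2335 and 2552, the DNFB arrays 1585, 1848 and 2156, and the BAC arrays 1974, 1602 and 1830. No treated array reached the lowest vehicle array, and both treated groups overlapped. The change was -0.43 after DNFB (SE 0.12, adjusted p = 0.0293) and -0.47 after BAC (SE 0.12, adjusted p = 0.0178), with a difference of 0.04 between them (95% interval -0.22 to 0.30). Both comparisons share the vehicle arrays, and both calls were lost without vehicle replicate 1 or 3; the DNFB call was also lost without DNFB replicate 1 or 2, and the BAC call without BAC replicate 2 (adjusted p up to 0.121 and 0.0890). Its other probe set had a mean signal of 33.0 and was not tested; averaged with it, the changes were -0.22 and -0.39 (adjusted p = 0.532 and 0.238).

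Ndufb2, another accessory subunit of the membrane arm, was higher after DNFB than in both other groups. Its signal was 2335, 2679 and 2519 in the vehicle arrays, 3023, 3049 and 3638 after DNFB, and 2449, 2501 and 2450 after BAC. All DNFB arrays lay above the rest, and BAC and vehicle overlapped. The change was 0.36 after DNFB (SE 0.10, adjusted p = 0.0287) and 0.38 against BAC (SE 0.10, adjusted p = 0.0355). The first call was lost without vehicle replicate 1 or 3 or DNFB replicate 3, the second without DNFB replicate 2 or 3 or any 1 BAC array (adjusted p up to 0.138 and 0.145). A second, dimmer Ndufb2 probe set gave 0.07 and 0.10, and another, with a mean signal of 47.9, gave -0.38 and -0.11. The mean over all the gene's probe sets, the dimmest included, gave 0.02 and 0.12 (adjusted p = 0.962 and 0.748).

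Complex II, succinate dehydrogenase, also an enzyme of the citric acid cycle, is built of Sdha, Sdhb, Sdhc and Sdhd, all 4 tested. Sdhd, a membrane anchor of the complex, rose after both compounds. Its signal was 765, 1044 and 882 in the vehicle arrays, 1116, 1582 and 1189 after DNFB, and 1175, 1126 and 1494 after BAC. All 6 treated arrays lay above all vehicle arrays, and DNFB and BAC overlapped. The change was 0.52 after DNFB (SE 0.15, adjusted p = 0.0365) and 0.49 after BAC (SE 0.15, adjusted p = 0.0466), and the difference between them was 0.03 (95% interval -0.30 to 0.36). The DNFB call was lost without vehicle replicate 1 or 3 or DNFB replicate 2 or 3, and the BAC call without vehicle replicate 1 or 3 or any 1 BAC array (changes 0.37 to 0.63 and 0.36 to 0.60, adjusted p up to 0.165 and 0.194). A dim Sdhd probe set, mean signal 121, gave -0.18 and -0.09, and averaging both probe sets gave 0.17 and 0.20 (adjusted p = 0.645 and 0.563).

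The other anchor, Sdhc, was called by 1 of its 2 probe sets. The brighter probe set, which stood for the gene, gave -0.17 after DNFB and -0.33 after BAC (adjusted p = 0.389 and 0.0761). With each probe set tested on its own, the other fell by 0.66 on the log2 scale after DNFB and by 0.56 after BAC (adjusted p = 0.0222 and 0.0497). Between the compounds 0 of 4 subunits passed, and 0 at an unadjusted p under 0.05. The median over the 4 subunits was 0.18 after DNFB and 0.04 after BAC.

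Complex III, the cytochrome bc1 complex, had 8 tested subunits, and 0 passed in each comparison (3, 0 and 2 at an unadjusted p under 0.05 for DNFB, BAC and their difference). The median was 0.21 after DNFB, 0.03 after BAC and 0.11 between the compounds. The smallest p after DNFB belonged to Uqcrb, a subunit near the ubiquinone site. Its signal was 9034, 9056 and 9121 in the vehicle arrays, 10958, 11368 and 10252 after DNFB, and 9300, 9706 and 10219 after BAC. The groups did not overlap and ran in the order vehicle, BAC, DNFB, with a change of 0.26 after DNFB (SE 0.09, adjusted p = 0.0704) and 0.10 after BAC (adjusted p = 0.500). A dimmer Uqcrb probe set gave 0.01 and 0.07, and the mean of both gave 0.13 after DNFB (adjusted p = 0.375). Uqcr11, a small accessory subunit, gave 0.38 between DNFB and BAC (SE 0.12, adjusted p = 0.0668), from 2438, 2964 and 3118 after DNFB and 2044, 2166 and 2306 after BAC; without DNFB replicate 1 it passed, at 0.48 (adjusted p = 0.0274).

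Complex IV, cytochrome c oxidase, held 3 of the 6 calls after DNFB. Of its 10 tested subunits in the common form 3 rose (30%, against 13.8% of all genes called in either direction), and 6 (60%) had every DNFB array above every vehicle array, against 15.2%. The median was 0.26 after DNFB and 0.05 after BAC, where 0 of 10 passed (0 at an unadjusted p under 0.05). Between the compounds the median was 0.21, 7 of 10 (70%) had every DNFB array above every BAC array, against 13.7% of all genes, and 0 passed (5 at an unadjusted p under 0.05). The 3 calls after DNFB, Cox5a, Cox6b1 and Cox7a2, were lost with median centring (adjusted p = 0.110, 0.195 and 0.208). They were also lost with quantile normalisation (adjusted p = 0.0909, 0.171 and 0.307) and without the intensity trend. With median centring, 3 of all 92 members had every DNFB array above every vehicle array, so the 6 subunits here did not all keep this.

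Cox5a, a subunit on the matrix side, had signals of 3801, 4563 and 4089 in the vehicle arrays, 5351, 5707 and 5230 after DNFB, and 4025, 4535 and 4740 after BAC. Every DNFB array lay above the other 6, and BAC and vehicle overlapped. The change was 0.39 after DNFB (SE 0.10, adjusted p = 0.0187), 0.10 after BAC (adjusted p = 0.591) and 0.29 between them (adjusted p = 0.103). Of its other probe sets, 1 also passed at 0.32 and 1 gave -0.25. The average over all Cox5a probe sets, the one used included, was 0.15 (adjusted p = 0.397). The call was lost without vehicle replicate 1 or 3 or DNFB replicate 2 (change 0.33 to 0.46, adjusted p up to 0.108).

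Cox6b1, which faces the intermembrane space near the cytochrome c site, had 5198, 6006 and 5134 in the vehicle arrays, 6038, 7649 and 7260 after DNFB, and 5779, 5935 and 5969 after BAC. DNFB lay above the other groups, its lowest array close to vehicle replicate 2. The change was 0.35 after DNFB (SE 0.11, adjusted p = 0.0378) and 0.12 after BAC (adjusted p = 0.516). The call was lost without vehicle replicate 1 or 3 or DNFB replicate 2 or 3 (adjusted p up to 0.151), and with both probe sets averaged (0.33, adjusted p = 0.0547).

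Cox7a2, the common form of a membrane subunit, had 8444, 8661 and 7775 in the vehicle arrays, 9974, 10810 and 10159 after DNFB, and 7981, 7970 and 9107 after BAC. The DNFB arrays lay above all others, and BAC and vehicle overlapped. The change was 0.31 after DNFB (SE 0.10, adjusted p = 0.0381), 0.01 after BAC (adjusted p = 0.967) and 0.31 between them (adjusted p = 0.0674, and 0.0494 without BAC replicate 3). The call was lost without vehicle replicate 1 or 3 or any 1 DNFB array (adjusted p up to 0.134).

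**Figure D3:**
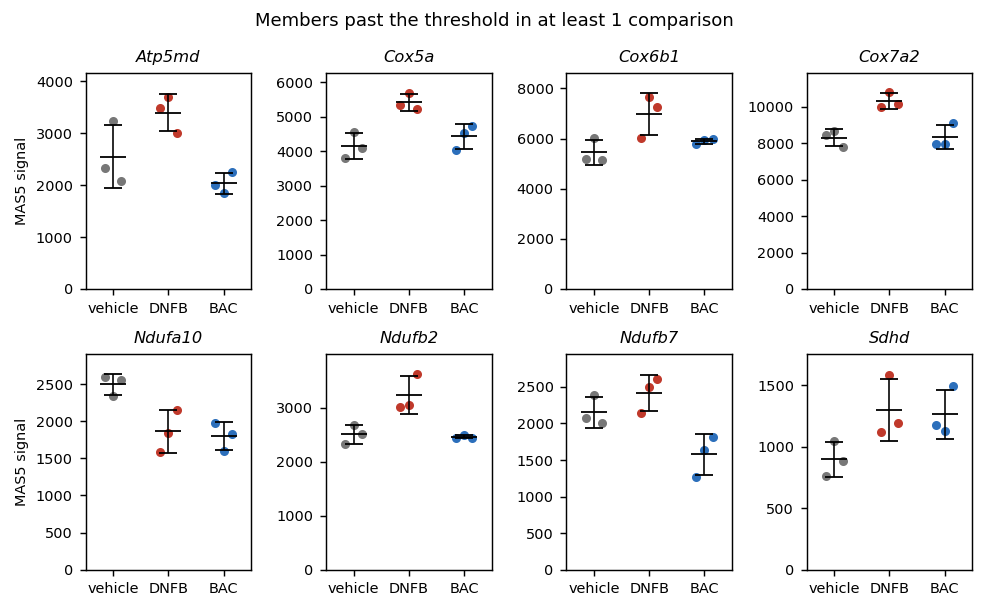
Signals on each array for the 8 members that passed in at least 1 comparison, by group, with the mean and SD of 3 arrays; each axis starts at 0. Cox5a, Cox6b1, Cox7a2 and Ndufb2 are highest after DNFB, Sdhd is higher and Ndufa10 lower after both compounds, and Ndufb7 is lowest after BAC.

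Some complex IV subunits come in tissue forms. Cox6a2, Cox7a1 and Cox8b are the forms of heart and skeletal muscle, with Cox6a1, Cox7a2 and Cox8a as their common counterparts. Of 7 tested tissue-restricted forms 0 passed in each comparison (3, 0 and 1 at an unadjusted p under 0.05), with a median of 0.35 after DNFB and 0.06 after BAC.

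Cox6a2 had 1489, 1496 and 1971 in the vehicle arrays, 1934, 2580 and 2213 after DNFB, and 1464, 2017 and 2175 after BAC. Cox7a1 had 429, 509 and 597, then 571, 741 and 762, then 402, 560 and 662. Cox8b had 1363, 1713 and 1836, then 1915, 2586 and 2125, then 1404, 2036 and 2225. All 3 read lowest in BAC replicate 1 among the BAC arrays and, on average, highest after DNFB; only for Cox8b did the DNFB arrays clear every vehicle array. The changes after DNFB were 0.44, 0.42 and 0.43 (adjusted p = 0.0792, 0.145 and 0.107), and after BAC 0.18, 0.06 and 0.19. Cox6a2 passed after DNFB without vehicle replicate 3 (0.57, adjusted p = 0.0422), and with array weights all 3 passed (0.51, 0.56 and 0.54, adjusted p = 0.0252, 0.0343 and 0.0287).

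The common counterparts changed by 0.22 (Cox6a1, adjusted p = 0.136), 0.31 (Cox7a2, past the threshold) and 0.14 (Cox8a, adjusted p = 0.379) after DNFB. Whether muscle and common forms differed in their change was not tested. Of 29 skeletal muscle markers, 10 (34.5%, against 13.8% of all genes called) rose after DNFB (among them Acta1, Mb, Atp2a1 and Tnnt3) and 1 (3.45%, against 14.2%) after BAC (Actn2), with medians of 0.43 and 0.29, and 0 passed between the compounds (1 at an unadjusted p under 0.05). Their summed signal ranged from 62326 to 82493 in the vehicle arrays, from 87684 to 110275 after DNFB and from 70962 to 106703 after BAC, and none was at 0, the lowest reading being 158. The part of muscle RNA in the members' values was not tested.

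**Figure D4:**
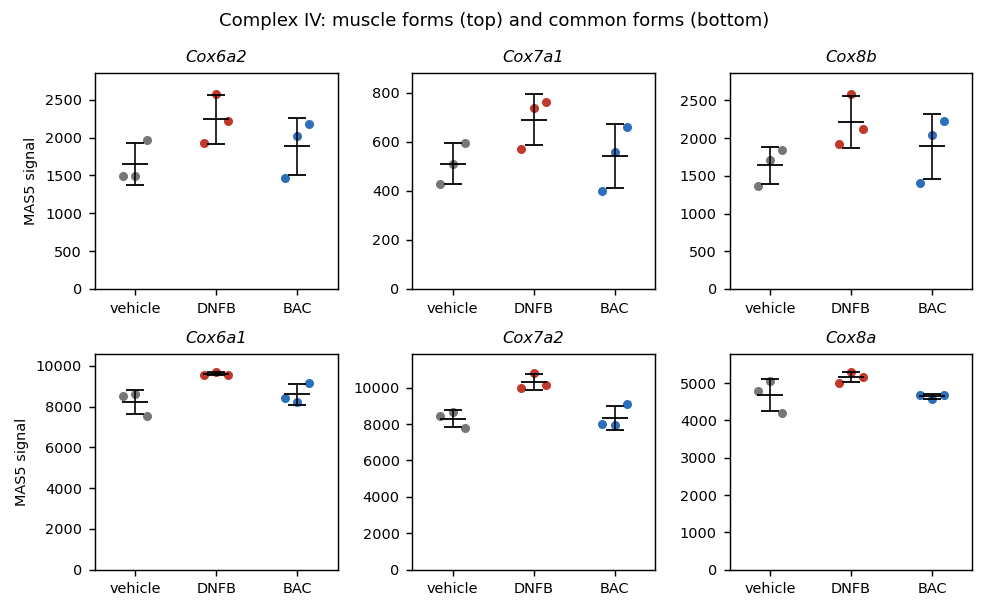
Signals on each array for the muscle forms Cox6a2, Cox7a1 and Cox8b (top) and their common counterparts Cox6a1, Cox7a2 and Cox8a (bottom), with the mean and SD of 3 arrays per group; each axis starts at 0. The muscle forms overlap between groups save Cox8b between vehicle and DNFB, and their BAC arrays spread most, with replicate 1 lowest.

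The remaining paired forms did not pass with all arrays. Cox4i1, the common form of the regulatory subunit, gave 0.30 after DNFB (SE 0.11, adjusted p = 0.0811) from 7010, 7703 and 6233 in vehicle and 8020, 8952 and 8676 after DNFB, with no overlap; without vehicle replicate 2 it passed, at 0.37 (adjusted p = 0.0410). Cox4i2, the oxygen-regulated lung form, gave -0.43 (SE 0.30, adjusted p = 0.397) on a dim probe set whose vehicle arrays ran from 102 to 274. Leaving out 1 array put it between -0.82 and -0.17, and it passed without vehicle replicate 2, the array at 102 (-0.82, adjusted p = 0.0399). Ndufa4, named for complex I but now placed in complex IV, gave -0.02 after DNFB and -0.26 after BAC (adjusted p = 0.945 and 0.191). Its hypoxia-inducible paralogue Ndufa4l2 read 586, 499 and 584 after DNFB and 446, 358 and 335 after BAC, a difference of 0.54 (SE 0.17, adjusted p = 0.0766).

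ATP synthase had 17 tested subunits, and the comparison with vehicle called 0 after either compound (4 and 0 at an unadjusted p under 0.05). The median was 0.17 after DNFB, with 16 of 17 above 0, and -0.02 after BAC. Atp5md, a small membrane subunit linked to the dimers of the enzyme, gave the largest difference of any member between the compounds. Its signal was 2339, 3232 and 2086 in the vehicle arrays, 3485, 3699 and 2998 after DNFB, and 2000, 1847 and 2260 after BAC. All DNFB arrays lay above all BAC arrays, and vehicle overlapped both. The difference was 0.73 (SE 0.15, adjusted p = 0.00647) and passed without each array in turn (adjusted p up to 0.0373). Against vehicle the changes were 0.43 after DNFB (adjusted p = 0.0648) and -0.30 after BAC (adjusted p = 0.189). Leaving out 1 array put these between 0.30 and 0.61 and between -0.44 and -0.12, and the DNFB change passed without vehicle replicate 2 (0.61, adjusted p = 0.00481).

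Of the 13 members that are no structural subunits, 0 passed in each comparison (1, 3 and 5 at an unadjusted p under 0.05). Their medians were 0.04 after DNFB, -0.12 after BAC and 0.13 between the compounds. Ndufaf4, a complex I assembly factor, read 469, 615 and 380 in vehicle and 540, 729 and 877 after BAC, with overlap and a change of 0.54 (SE 0.19, adjusted p = 0.0683). It passed without vehicle replicate 2 or BAC replicate 1 (0.71 and 0.72, adjusted p = 0.0224 and 0.0198). A dimmer Ndufaf4 probe set gave 0.01 after BAC (adjusted p = 0.989), and the mean of both gave 0.27 (adjusted p = 0.331). Ndufaf5, which modifies a core complex I subunit during assembly, read 93.1, 125 and 160 in vehicle and 165, 215 and 170 after DNFB, with a change of 0.51 (SE 0.23, adjusted p = 0.175). Ndufaf7, a methyltransferase of complex I assembly, read 268, 324 and 250 after DNFB and 198, 211 and 178 after BAC, a difference of 0.48 (SE 0.17, adjusted p = 0.112).

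Other genes of the pathway were read from lists outside the symbol rule. Of 39 assembly factors and electron carriers, 2 rose and 1 fell after DNFB, 1 rose and 1 fell after BAC, and 5 were higher after DNFB than after BAC. These are 7.69%, 5.13% and 12.8% of the list, against 13.8%, 14.2% and 6.80% of all genes. Cytochrome c itself (Cycs) read 2870, 3212 and 3452 in vehicle, 4208, 4341 and 4467 after DNFB, and 3605, 4299 and 4639 after BAC. Both treated groups lay above vehicle, with changes of 0.45 (SE 0.11, adjusted p = 0.0124) and 0.39 (SE 0.11, adjusted p = 0.0276). Cyc1, the cytochrome c1 of complex III, gave 0.12 and 0.08 (adjusted p = 0.500 and 0.669). Acad9, which acts in complex I assembly, fell by 0.55 and 0.48 on the log2 scale (adjusted p = 0.0176 and 0.0367). The Cycs calls were lost without vehicle replicate 1, and after BAC also without vehicle replicate 2 or BAC replicate 2 or 3 (adjusted p up to 0.0767 and 0.141). With probe sets averaged, Cycs gave 0.27 and 0.22 (adjusted p = 0.308 and 0.405). The Acad9 calls were lost without vehicle replicate 1 or 3, DNFB replicate 2, or BAC replicate 2 or 3 (adjusted p up to 0.0844 and 0.146).

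The 5 that differed between the compounds were Foxred1 (complex I assembly), Cox18 and Surf1 (complex IV), and Uqcc2 and Uqcc3 (complex III). Foxred1 read 225, 175 and 173 after DNFB, and 57.9, 117 and 75.9 after BAC, a difference of 1.09 (SE 0.25, adjusted p = 0.0155). The others gave 0.60, 0.55, 0.46 and 0.52 (adjusted p = 0.0159, 0.0203, 0.0305 and 0.0470). In all 5 genes every DNFB array lay above every BAC array. The Foxred1 call was lost without DNFB replicate 1 or BAC replicate 1 and that of Cox18 without DNFB replicate 3 or BAC replicate 1 (adjusted p up to 0.0589 and 0.0632). Those of Surf1 and Uqcc3 were lost without DNFB replicate 2 or 3 or BAC replicate 2 or 3, and that of Uqcc2 without any 1 array of these groups save BAC replicate 2 (adjusted p up to 0.0874, 0.203 and 0.122). With probe sets averaged, the Uqcc3 call was lost (0.52, adjusted p = 0.0590) and the others stayed.

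Among regulators of mitochondrial biogenesis, 6 of 20 (30%) passed after each compound, against 13.8% and 14.2% of all genes, and 3 (15%) between the compounds, against 6.80%. Of these 20, 4 rose and 2 fell after DNFB, 2 rose and 4 fell after BAC, and 3 were higher after DNFB than after BAC. With probe sets averaged, only Ppargc1a and Tfb2m kept their calls after DNFB, and after BAC Tfam alone lost its call. With median centring, Gabpb1, Nrip1 and Tfb2m lost their calls after DNFB. The list was chosen with earlier results of these data known, so these shares are a description only. Ppargc1a, the coactivator PGC-1 alpha, read 118, 91.6 and 140 in vehicle, 305, 308 and 379 after DNFB, and 186, 273 and 231 after BAC. Every treated array lay above every vehicle array, with changes of 1.39 after DNFB (SE 0.19, adjusted p = 0.000164) and 0.89 after BAC (SE 0.19, adjusted p = 0.00594). Both calls were kept without each array in turn (adjusted p up to 0.00169 and 0.0344). The difference between the compounds was 0.50 (adjusted p = 0.141).

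Its relative Pprc1 rose after BAC by 0.97 (SE 0.19, adjusted p = 0.00291), from 224, 380 and 277 to 449, 610 and 706, while the DNFB change was 0.45 (adjusted p = 0.145), which passed without vehicle replicate 2 (0.64, adjusted p = 0.0358). Ppargc1b gave -0.67 and -0.31 (adjusted p = 0.179 and 0.552). Of the transcription factors themselves, Yy1 rose after DNFB by 0.49 (SE 0.10, adjusted p = 0.00279), from 1155, 1196 and 1172 to 1667, 1599 and 1691, and was higher than after BAC by 0.37 (adjusted p = 0.0305). The second Yy1 call was lost without any 1 of the DNFB or BAC arrays (adjusted p up to 0.101), and the first was kept (up to 0.0179), though with the Yy1 probe sets averaged it was 0.43 (adjusted p = 0.0642). Nrf1 gave 0.31 and 0.34 and Esrra -0.11 and -0.15, none past the threshold. With probe sets averaged, Esrra gave -0.77 and -0.87 and Nrf1 0.25 and 0.19, again with none past it (adjusted p = 0.104 and 0.0678, 0.377 and 0.497).

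Gabpb1, the beta subunit of GABP, rose after DNFB by 0.57 (SE 0.16, adjusted p = 0.0250), from 245, 238 and 238 to 373, 305 and 422. Perm1, a striated muscle factor of this pathway, rose by 0.80 (SE 0.21, adjusted p = 0.0206), and the corepressor Nrip1 fell by 0.46 on the log2 scale (SE 0.13, adjusted p = 0.0281). All 3 genes separated DNFB from vehicle on every array. Calls were lost for Gabpb1 without any 1 vehicle array or DNFB replicate 1 or 3, for Perm1 without vehicle replicate 1 or 2 or DNFB replicate 2 or 3, and for Nrip1 without vehicle replicate 1 or 3 or DNFB replicate 1 or 2 (adjusted p up to 0.108, 0.0864 and 0.119). With probe sets averaged the changes were 0.39, 0.28 and -0.48 (adjusted p = 0.152, 0.591 and 0.0685).

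The 4 regulators that fell after BAC, Tfb2m, Polg2, Tfam and Twnk, act on the mitochondrial genome itself. Polg, Polrmt and Tfb1m, on the same list of 20 regulators, did not pass in any comparison. Tfb2m, which starts mitochondrial transcription, read 837, 768 and 823 in vehicle, 542, 561 and 633 after DNFB, and 378, 327 and 378 after BAC. The 3 groups did not overlap. The change was -0.47 after DNFB (SE 0.12, adjusted p = 0.0166) and -1.13 after BAC (SE 0.12, adjusted p = 1.41e-05), and DNFB was higher than BAC by 0.66 (SE 0.12, adjusted p = 0.00407). The DNFB call was lost without vehicle replicate 1 or 3 or DNFB replicate 1 or 2 (adjusted p up to 0.0755), and the other pair was kept without each array in turn (up to 0.000180 and 0.0260).

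Polg2, the accessory subunit of the mitochondrial DNA polymerase, read 340, 358 and 300 in vehicle, 242, 378 and 373 after DNFB, and 197, 167 and 209 after BAC. BAC lay below all other arrays, with a change of -0.75 (SE 0.18, adjusted p = 0.0109), kept without each array in turn (up to 0.0494), and DNFB exceeded BAC by 0.72 (adjusted p = 0.0248). Tfam, which packages mitochondrial DNA, gave -0.61 after BAC (SE 0.16, adjusted p = 0.0176) and -0.34 after DNFB (adjusted p = 0.189). The helicase Twnk gave -0.58 after BAC (SE 0.18, adjusted p = 0.0425) and -0.06 after DNFB (adjusted p = 0.879). Calls were lost for Tfam without vehicle replicate 1 or 2 or BAC replicate 3 and for Twnk without any 1 vehicle array or BAC replicate 1 or 2 (adjusted p up to 0.0831 and 0.178), and both Tfam probe sets averaged gave -0.21 (adjusted p = 0.474). That of Polg2 between the compounds was lost without DNFB replicate 2 or 3 or BAC replicate 1 or 2 (up to 0.106).

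**Figure D5:**
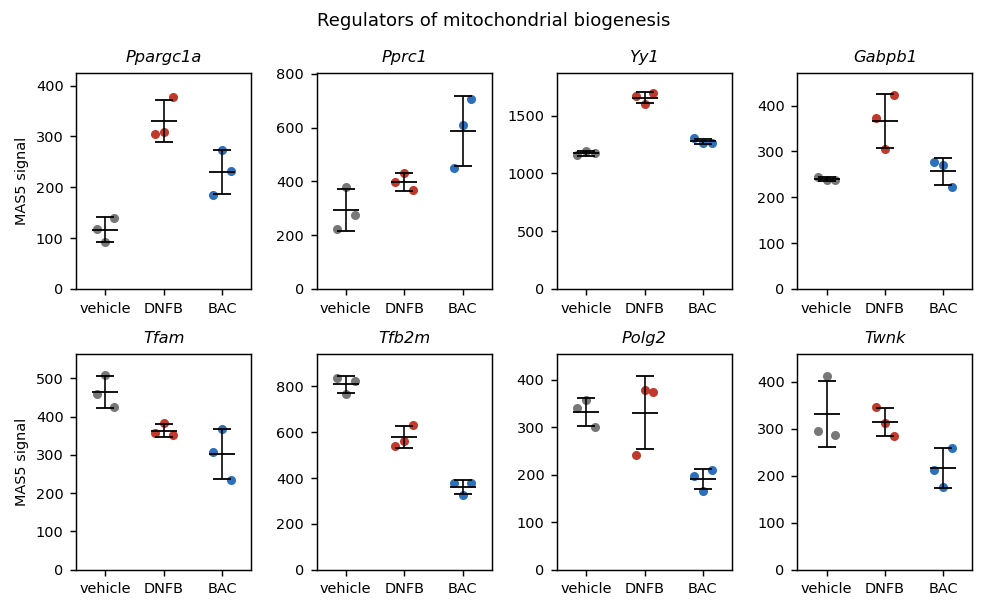
Signals on each array for 8 regulators of mitochondrial biogenesis, with the mean and SD of 3 arrays per group; each axis starts at 0. Ppargc1a is higher on all treated arrays, Tfb2m falls from vehicle to DNFB to BAC without overlap, and Polg2 is lowest after BAC.

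The citric acid cycle supplies the chain with NADH and succinate. Of its 17 tested enzymes 5.88%, 17.6% and 5.88% passed in the 3 comparisons, against 13.8%, 14.2% and 6.80% of all genes. Of these enzymes, 1 rose after DNFB (Fh1, fumarase), 2 rose and 1 fell after BAC (Dlst and Dld, which act in the 2-oxoglutarate dehydrogenase complex, and Suclg2, a subunit of succinyl-CoA ligase), and 1 was higher after DNFB than after BAC (Fh1). Fh1 read 1424, 1243 and 1181 in vehicle, 1488, 1597 and 2069 after DNFB, and 1207, 1226 and 1097 after BAC. DNFB lay above both other groups, by 0.41 against vehicle (SE 0.13, adjusted p = 0.0476) and 0.53 against BAC (SE 0.13, adjusted p = 0.0222). The first was lost without any 1 vehicle array or DNFB replicate 2 or 3, the second without DNFB replicate 3 or any 1 BAC array (adjusted p up to 0.204 and 0.103). After BAC, Dlst and Dld gave 0.51 and 0.49 and Suclg2 -0.55 (adjusted p = 0.0129, 0.0235 and 0.0180). These were lost without vehicle replicate 3 or BAC replicate 3 (Dlst), vehicle replicate 1 or 3 or BAC replicate 2 (Dld), and vehicle replicate 1 or 3 or BAC replicate 2 or 3 (Suclg2), with adjusted p up to 0.0711, 0.122 and 0.0904. With probe sets averaged, Dld lost its call (0.60, adjusted p = 0.203), while Dlst and Suclg2 passed (adjusted p = 0.0185 and 0.0385). In that setting Fh1 did not pass after DNFB (adjusted p = 0.0642) but did between the compounds (adjusted p = 0.0355). With median centring Dlst and Dld did not pass after BAC (adjusted p = 0.0886 and 0.138).

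Of 7 tested carriers and uncoupling proteins of the inner membrane, 1 (14.3%) rose after DNFB, against 13.8% of all genes called, and 0 passed after BAC or between the compounds (1 and 3 at an unadjusted p under 0.05). Slc25a3, the phosphate carrier that supplies ATP synthase, read 6773, 7327 and 6459 in vehicle, 9496, 9522 and 9157 after DNFB, and 7658, 7683 and 9055 after BAC. The groups did not overlap. The change was 0.46 after DNFB (SE 0.10, adjusted p = 0.00534), kept without each array in turn (up to 0.0289), and 0.24 after BAC (adjusted p = 0.116). With its probe sets averaged Slc25a3 passed after both, at 0.78 and 0.53 (adjusted p = 0.00130 and 0.0137). Slc25a4, the ADP/ATP carrier prominent in muscle, gave 0.26 and 0.14 (adjusted p = 0.129 and 0.411).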

How the data were processed

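Each deposited value is an intensity, not a logarithm: the MAS5 signal of 1 probe set on 1 array. The submitters' processing notes name MAS5 and the Affymetrix Expression Console as the software, with no version. In each array the mean over probe sets, leaving out the highest and lowest 2%, was 250.001, so arrays had been scaled to 1 target, and a change is relative to the bulk of genes on the array. Detection calls and scan dates were not used here. The number of arrays, 9, limits the precision.

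Control probe sets were left out, and names came from the platform annotation. A gene was read from whichever of its probe sets had the highest log2 value averaged over arrays; 53 members had several, and 10 probe sets shared between a member and other genes were left out. Genes above the array's 40th percentile in at least 3 of 9 arrays were tested (14122 genes). Signals were transformed as log2(signal + 16), which understates changes of dim genes. All 9 arrays entered 1 limma 3.58.1 fit in R 4.3.3 (lmFit, then eBayes with its prior variance following signal), two-sided, with Benjamini-Hochberg adjustment over all tested genes and a threshold of 0.05. The script was tested on simulated data. With 3 arrays a group, an exact permutation test has a smallest p of 0.1 and was not run. Other settings tried were the pseudocount, filter, scaling, probe-set choice, trend, array weights, a replicate block, 2-group fits and leaving out each array of the groups compared.

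Members and gene lists were chosen with earlier results of these data known. Values per array were given for members past the threshold in any comparison, for the member with the smallest p of each complex where none passed, and for muscle and other tissue forms with their counterparts. From the lists outside the symbol rule, the gene with the largest change among those that passed was named, and Ppargc1a, Ppargc1b, Nrf1, Tfam, Esrra, Cyc1 and Slc25a4 whatever their values; other genes named from those lists were chosen after their values were seen. Promoter letters and their coordinates came from RefSeq windows of GRCm38.p6.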

Additional observations from a re-analysis of the deposited data

How the results depend on the processing

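For the members and the genes outside the symbol rule that were rerun, no call turned its direction under the settings tried; cell type markers and single probe sets were not rerun. No median over members changed sign except the near-zero median after BAC. Calls after DNFB (6 members) became 3 with no filter on low values, 0 with arrays centred on their median, 2 with quantile normalisation, 2 with a gene's probe sets averaged, 0 without the intensity trend and 16 with array weights. For these settings in order, calls over all genes (1955) became 1685, 1417, 1834, 1446, 1202 and 2426. Leaving out 1 array gave 0 to 15 member calls, and 1249 to 1801 over all genes. The members' median of 0.17 was 0.065 with quantile normalisation and 0.11 to 0.23 with 1 array left out. Member calls after BAC (3) became 6 with quantile normalisation, 0 without the trend and 8 with array weights, and 0 to 4 with 1 array left out. Over all genes (2009) these were 1965, 1387 and 2766, and 1225 to 1745. Member calls between the compounds (3) became 6 with the filter at the 60th percentile, 0 without the trend and 6 with array weights. They were 1 to 9 with 1 array left out. Over all genes (961) these were 1069, 402 and 970, and 513 to 892. Without the trend, calls over all genes also fell, from 1955 to 1202 after DNFB and from 961 to 402 between the compounds. The cause of these moves was not tested.

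Under alternatives chosen after seeing the data, members with every DNFB array above every vehicle array (17) became 3 with median centring and 10 with quantile normalisation, and those with every array lower (2) became 1 with median centring. After BAC, every array higher (2) became 0 with median centring, 1 with quantile normalisation and 0 with the mean of probe sets, and every array lower (13) became 25 with quantile normalisation, 27.2% of members against 18.1% of all genes.

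Same-numbered arrays correlated at -0.12 to 0.15 in their deviations from group means, and differently numbered arrays at -0.16 to 0.12. The numbers were therefore not taken as pairs. The labels do not say whether vehicle and treated ears came from the same animals. With the replicate number as a block, 9, 3 and 4 members passed in the 3 comparisons. Their medians stayed at 0.17, -0.04 and 0.19 over all members. Of all genes, 1874, 1939 and 860 passed with this block. With it Cox6a2, Cox7a1 and Cox8b also passed after DNFB (adjusted p = 0.0351, 0.0383 and 0.0281) and Ndufa4l2 between the compounds (0.0454). Cox7a2 and Fh1 after DNFB, Twnk after BAC, and Uqcc3 and Yy1 between the compounds did not pass (0.0699, 0.0697, 0.0624, 0.0699 and 0.0511). Dim members such as Cox7c, Cox4i2 and Cox6b2 had standard errors of 0.30 to 0.40, so small changes in them were not detectable.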

Other observations

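Among 53 members read by several probe sets, some probe sets of 1 gene differed in their calls. Tested as single probe sets, 8 of 169 passed after DNFB, where 2871 of all tested probe sets passed. A dimmer Ndufaf8 probe set gave -0.80 after BAC (adjusted p = 0.00667, limma), where the brighter one gave -0.39 (adjusted p = 0.0921). For Cox6b1 and Cox7a2, the second probe set gave 0.31 and 0.35 after DNFB, close to the 0.35 and 0.31 of the one used, with adjusted p = 0.0722 and 0.0542. These genes were named after their values were seen.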
